A study of Mus musculus with 6 samples.

Results

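The 42 genes described here are named for the vacuolar proton pump (V-ATPase) or encode proteins on or anchored to the lysosomal membrane. The genes were followed in macrophages given interleukin-4 (IL-4), the cytokine used to drive alternative (M2) activation. They were chosen by name from the 25124 genes of the deposited table. All symbols beginning with Atp6v or Atp6ap were taken, apart from Atp6v0d2, which gave 26 genes, called pump genes here. Atp6v0c-ps2, a non-coding entry, and Atp6v1fnb are among them by name alone. A further 16 genes were named one by one: Lamp1, Lamp2, Lamtor1 to Lamtor5, Rraga, Rragc, Rragd, Flcn, Mcoln1, Clcn7, Ostm1, Slc38a9 and Tmem192. The rule reads names and no measured value, but earlier results of these data were known when it was drawn up.

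The cells were bone marrow-derived macrophages (BMDM), grown from marrow of 8-week-old wild-type C57BL/6 mice for 7 days in 20 ng/ml macrophage colony-stimulating factor (M-CSF). M2 cells, 3 libraries, then received 10 ng/ml IL-4 together with 20 ng/ml M-CSF, and M0 cells, 3 libraries, received 20 ng/ml M-CSF without IL-4. RNA was taken 4 h later, polyadenylated RNA was sequenced, and each library yielded 16913187 to 19019896 reads in genes. The labels do not say whether the replicates came from separate mice or cultures, so p-values measure the spread between these libraries, which may be technical.

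The V-ATPase pumps protons into lysosomes and endosomes at the cost of ATP. Its cytosolic V1 sector hydrolyses ATP and turns a rotor, and its membrane V0 sector carries the protons. On the lysosomal surface the pump, the Ragulator complex and the Rag GTPases form the platform on which the kinase complex mTORC1 senses amino acids, while ion channels and the heavily glycosylated LAMP proteins make up much of the rest of the membrane. Macrophages depend on this acid compartment to digest what they take up.

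The libraries matched their labels. Arg1, a classical IL-4 target gene, averaged 1009 TPM in M2 libraries and 1.554 TPM in M0 libraries. All 8 macrophage markers were detected, and summed to 15515 to 15887 TPM in M2 libraries and 16654 to 17763 TPM in M0 libraries. Most of that sum was Lyz2, at 12051 TPM in M2 libraries and 13744 TPM in M0 libraries. Of the 8, 3 were higher and 3 lower at the threshold given below, beside 17.7% and 45.3% of all tested genes. Fcgr1 changed most, at 20.6 TPM in M2 libraries and 128 TPM in M0 libraries. Listed markers of T and NK cells, B cells and mast cells each stayed under 1 TPM. The list of 7 neutrophil and precursor markers summed to 31.2 to 38.3 TPM in M2 libraries and 33.6 to 40.7 TPM in M0 libraries, that of 5 stromal markers to 6.95 to 7.42 TPM in M2 libraries and 9.37 to 9.83 TPM in M0 libraries, and that of 4 dendritic cell markers to 1.08 to 1.33 TPM in M2 libraries and 0.292 to 0.551 TPM in M0 libraries. M0 replicate 2 stood apart from the other M0 libraries: its scatter against them, as chi-square per degree of freedom over genes, was 9.52 and 10.7, against 2.31 between M0 replicates 1 and 3 and 1.54 to 1.73 among M2 libraries. Members whose call or sign changed without that library are given with and without it. Other fold changes may shift in size without it. Levels are in TPM, the share of a library's transcripts that a gene makes up, corrected for transcript length. Summed over the listed genes, TPM came to 542749 to 543854 in M2 libraries and 548160 to 553186 in M0 libraries. On that scale the median tested gene had a log2 fold change of -0.15 (M2 minus M0), which median scaling of the libraries brought to 0.00. For that reason most changes are given on both scales. In bulk RNA, fewer cells that express a gene and less of its RNA per cell cannot be told apart.

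Among the 34 members that reached 1 TPM in at least 3 libraries and were tested, 12 were higher in M2 cells and 11 were lower by limma-trend at a Benjamini-Hochberg adjusted p under 0.05 over all genes tested, and 11 did not pass. Over all 11235 tested genes 62.9% passed, 17.7% higher and 45.3% lower. The median log2 fold change of the members was 0.00 on the TPM scale. After median scaling 19 members were higher and 4 lower, with a median of 0.17, against 56.9% of all genes passing, 28.8% higher and 28.2% lower. Without M0 replicate 2 the counts were 14 higher and 12 lower, and all 12 higher and 11 lower calls held. Overlap between the groups is stated below gene by gene as a description. The share of all tested genes without overlap was not counted.

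The 12 members higher on both scales were Atp6v1b2, Atp6v1a, Atp6v1g2, Atp6v0a1, Atp6v0c, Atp6v0c-ps2, Slc38a9, Rragd, Flcn, Mcoln1, Lamp1 and Lamp2. Those lower on both scales were 4, namely Rragc, Rraga, Atp6v0a2 and Clcn7. Of all tested genes 17.7% were higher and 28.2% lower on both scales. The plot of all members shows how the 2 scales shift the same genes, and that the sign of 10 small changes depends on the scale.

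**Figure D1:**
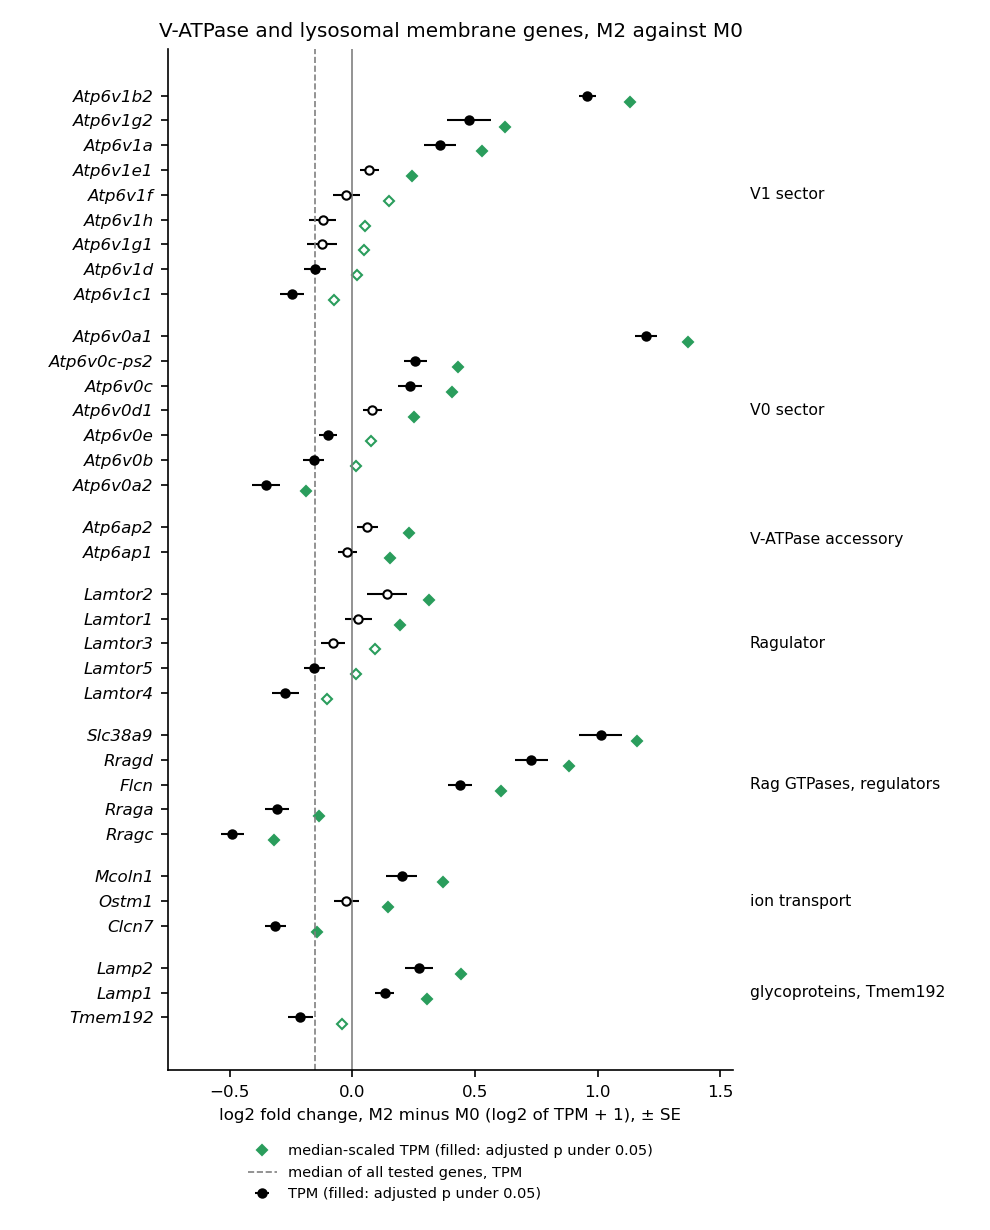
Log2 fold change (M2 minus M0, on log2 of TPM + 1, ± SE, 3 libraries per group) of the 34 tested members, grouped by role. Circles are TPM and diamonds median-scaled TPM, filled where the adjusted p was under 0.05; Atp6v0a1, Slc38a9 and Atp6v1b2 lie farthest to the right at 1.20, 1.01 and 0.96, and Rragc farthest to the left at -0.49, all on the TPM scale.

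Both directions occurred within single complexes. The 18 tested pump genes held 6 higher and 5 lower calls (10 higher and 1 lower after median scaling), and without M2 replicate 1 the lower calls numbered 3. The tested and higher pump genes count Atp6v0c and Atp6v0c-ps2 separately, although these entries share reads and are 1 locus. The 16 other lysosomal membrane genes held 6 higher and 6 lower calls (9 higher and 3 lower after median scaling). Among all tested genes, the distribution plot shows members on both sides of the median on either scale, but most lie above it. The median member stood at 0.00 on TPM, against -0.15 for all tested genes, and at 0.17 after scaling, against 0.00. A few members lie well to the right of the bulk. Of all tested genes 97.4% had a lower log2 fold change than Atp6v0a1, 96.7% a lower one than Slc38a9 and 96.4% a lower one than Atp6v1b2.

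**Figure D2:**
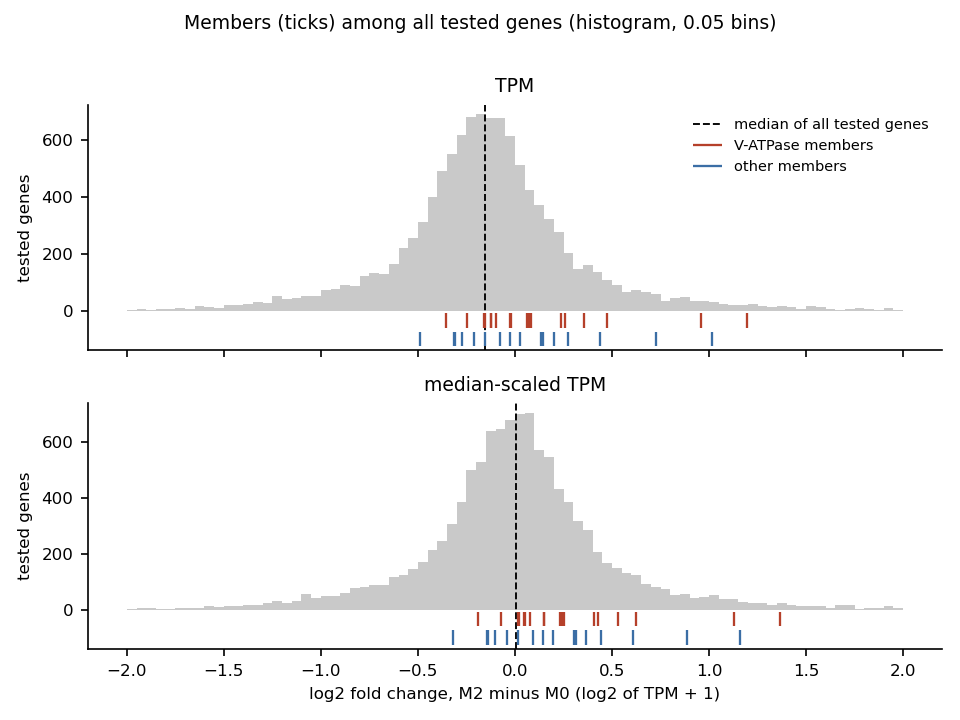
Histogram of the log2 fold change (M2 minus M0) of the 11235 tested genes between -2 and 2, on TPM (above) and median-scaled TPM (below), with a tick for each tested member. The dashed line is the median of all tested genes, at -0.15 and 0.00. Pump genes and other members have ticks on both sides of it, most of them to the right.

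By level, Lamp1 was the most abundant member in both groups, at 1196 ± 7.601 TPM in M2 libraries and 1092 ± 50.5 TPM in M0 libraries (SD, n = 3 each). Atp6v1b2 ranked 2 of 42 in M2 libraries and 6 of 42 in M0 libraries, and Atp6v0a1 ranked 9 in M2 libraries and 19 in M0 libraries. In M2 libraries Atp6v0b (344 ± 7.49 TPM) and Lamp2 (342 ± 5.09 TPM) did not differ beyond their spread, nor did Atp6v0c (306 ± 6.73 TPM) and Atp6v0e (303 ± 4.37 TPM). Summed over its measured genes, the V1 sector reached 1753 ± 9.30 TPM in M2 libraries and 1487 ± 30.8 TPM in M0 libraries. The V0 sector, with its c subunit locus counted once, reached 1399 ± 13.7 TPM in M2 libraries and 1249 ± 30.9 TPM in M0 libraries. Few genes carry these differences. In V1, Atp6v1b2 averaged 515 TPM in M2 libraries and 265 TPM in M0 libraries, and Atp6v1a 323 and 253 TPM. In V0, Atp6v0a1 averaged 287 TPM in M2 libraries and 125 TPM in M0 libraries. Atp6v1c1, Atp6v1d, Atp6v0b, Atp6v0e and Atp6v0a2 were called lower on TPM. Exons of Atp6v0a2, Atp6v0b, Lamp1, Ostm1, Rragc, Slc38a9 and Tmem192 overlap annotated genes on the opposite strand by 149 to 663 bases, and reads of those bases cannot be told apart without strand. The sums leave out Atp6v0d2 and Tcirg1, pump genes whose symbols lie outside the naming rule, which are described with their paralogues.

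The short DNA word CACGTG, an E-box, is the core of the element through which the MiT/TFE transcription factors, among them TFEB, act on lysosomal genes. It was found within 250 bases upstream of the start site in 8 of the 27 tested members that have a RefSeq promoter (29.6%), against 8.81% of 8789 tested genes. The word reads the same on both strands. Of those 8 members, Lamp1, Mcoln1 and Atp6v1a were called higher, Rragc, Clcn7, Lamtor4 and Atp6v0b were called lower on the TPM scale, and Lamtor1 was not called. The longer word TCACGTGA, which contains CACGTG, was present in 2 of 27 members (7.41%), against 1.84% of tested genes. Flanked by a further G before and C after, it was present in 0 of 27, against 0.614% of tested genes. A word of the STAT6 type, TTC and GAA parted by 4 unspecified bases and so the same on both strands, was present in 1 of 27 (3.70%), Flcn, against 4.82% of tested genes. The windows of Atp6v0a1, Flcn and Rragd lie 957, 438 and 293 bases from the start of the deposited transcript, and the other 24 are placed on it. Matches are a description of the letters in these windows. Shown are the 150 bases upstream of 3 members that carry the E-box and were called on both scales, in opposite directions, from the RefSeq table of build GRCm38.p6, with CACGTG in capitals. The Lamp1 window (chr8:13159011-13159160, plus strand) holds it 4 times, starting 61, 45, 28 and 15 bases before the start site. The Rragc window (chr4:123917283-123917432, plus strand) and the Clcn7 window (chr17:25133241-25133390, plus strand) hold it once each. No base of these windows lies in an annotated exon.
Lamp1: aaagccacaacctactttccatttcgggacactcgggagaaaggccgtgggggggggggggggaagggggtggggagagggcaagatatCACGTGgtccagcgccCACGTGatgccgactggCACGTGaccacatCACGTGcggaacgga
Rragc: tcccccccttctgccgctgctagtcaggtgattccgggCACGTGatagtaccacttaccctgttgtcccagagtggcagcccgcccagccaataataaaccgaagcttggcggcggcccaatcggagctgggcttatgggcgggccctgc
Clcn7: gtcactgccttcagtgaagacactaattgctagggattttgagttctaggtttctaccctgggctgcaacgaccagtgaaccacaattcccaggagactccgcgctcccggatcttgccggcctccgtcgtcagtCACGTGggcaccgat

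In the V1 sector both genes of the catalytic head were higher in M2 cells. Atp6v1b2, which encodes the B subunit of the ATP-hydrolysing ring (chr8:69088736-69113717, plus strand, mm10), had 510.2, 511 and 524 TPM in M2 libraries, against 264, 268 and 262 TPM in M0 libraries. Every M2 library lay above every M0 library, at 1.95 times by means, and limma-trend put the change at 0.96 ± 0.03 on the log2 scale (SE; adjusted p 5.5e-09), or 1.13 after median scaling. Its annotated span shares chr8:69088736-69089222 with an entry for Slc18a1 on the other strand, which averaged 3.29 TPM in M2 libraries and 0.832 TPM in M0 libraries. The A subunit gene Atp6v1a (chr16:44085404-44139259, minus strand), whose product holds the catalytic sites, had 322, 324 and 322 TPM in M2 libraries, against 237, 285 and 236 TPM in M0 libraries. The groups did not overlap, and M0 replicate 2 was the highest of the M0 libraries. Its log2 fold change was 0.36 (adjusted p 0.00091, limma-trend), 0.53 after median scaling and 0.44 without M0 replicate 2. Within a library, Atp6v1b2 stood at 1.597 ± 0.026 times the level of Atp6v1a in M2 cells and 1.05 ± 0.10 times in M0 cells (SD, n = 3 each), a ratio that no scaling of libraries can move.

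Atp6v1g2, an isoform of the stalk subunit G known mainly from brain, was the scarcest tested member in M2 libraries, and the scarcest but for Slc38a9 in M0 libraries. It had 6.93, 6.68 and 6.58 TPM in M2 libraries, against 4.53, 3.99 and 5.21 TPM in M0 libraries, from 94 to 168 reads per library. The groups did not overlap, and the log2 fold change was 0.48 (adjusted p 0.00099, limma-trend; 0.62 after median scaling and 0.29 with a pseudocount of 5). It made up 4.74% of G subunit TPM in M2 libraries and 2.99% in M0 libraries, the rest being Atp6v1g1. Atp6v1g2 shares 144 exon bases with Nfkbil1 on the opposite strand (15.6 TPM in M2 libraries and 15.4 TPM in M0 libraries), and the library kit does not mark strand, so reads of the shared bases cannot be told apart. Atp6v1g1 itself had 133, 136 and 137 TPM in M2 libraries and 152, 133 and 158 TPM in M0 libraries. Its groups overlapped and it did not pass (log2 fold change -0.12, adjusted p 0.097), but it was called lower without M0 replicate 2 (-0.20, adjusted p 0.00053).

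The other V1 genes differed by less, and none of them was called on both scales. Atp6v1c1, a subunit that links the head to the membrane sector and is released when the pump disassembles, had 143, 154 and 151 TPM in M2 libraries, against 169.6, 187 and 176 TPM in M0 libraries. The groups did not overlap on TPM, but after median scaling the log2 fold change shrank to -0.07 from -0.25 and was no longer called (adjusted p 0.19 and 0.0014, limma-trend). Atp6v1d, of the central rotor, averaged 112 TPM in M2 libraries and 125 TPM in M0 libraries, with a log2 fold change of -0.15 on TPM (adjusted p 0.013; 0.063 without M2 replicate 1) and 0.02 after scaling (adjusted p 0.71). Atp6v1e1, of the peripheral stalk, averaged 202 TPM in M2 libraries and 193 TPM in M0 libraries; its log2 fold change of 0.07 on TPM did not pass (adjusted p 0.15) while that of 0.24 after scaling did (adjusted p 0.0010). Atp6v1f (205 TPM in M2 libraries, 209 TPM in M0 libraries) and Atp6v1h, a regulatory subunit (104 TPM in M2 libraries, 113 TPM in M0 libraries), passed on neither scale, although Atp6v1h was called lower without M0 replicate 1 (-0.15, adjusted p 0.049).

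**Figure D3:**
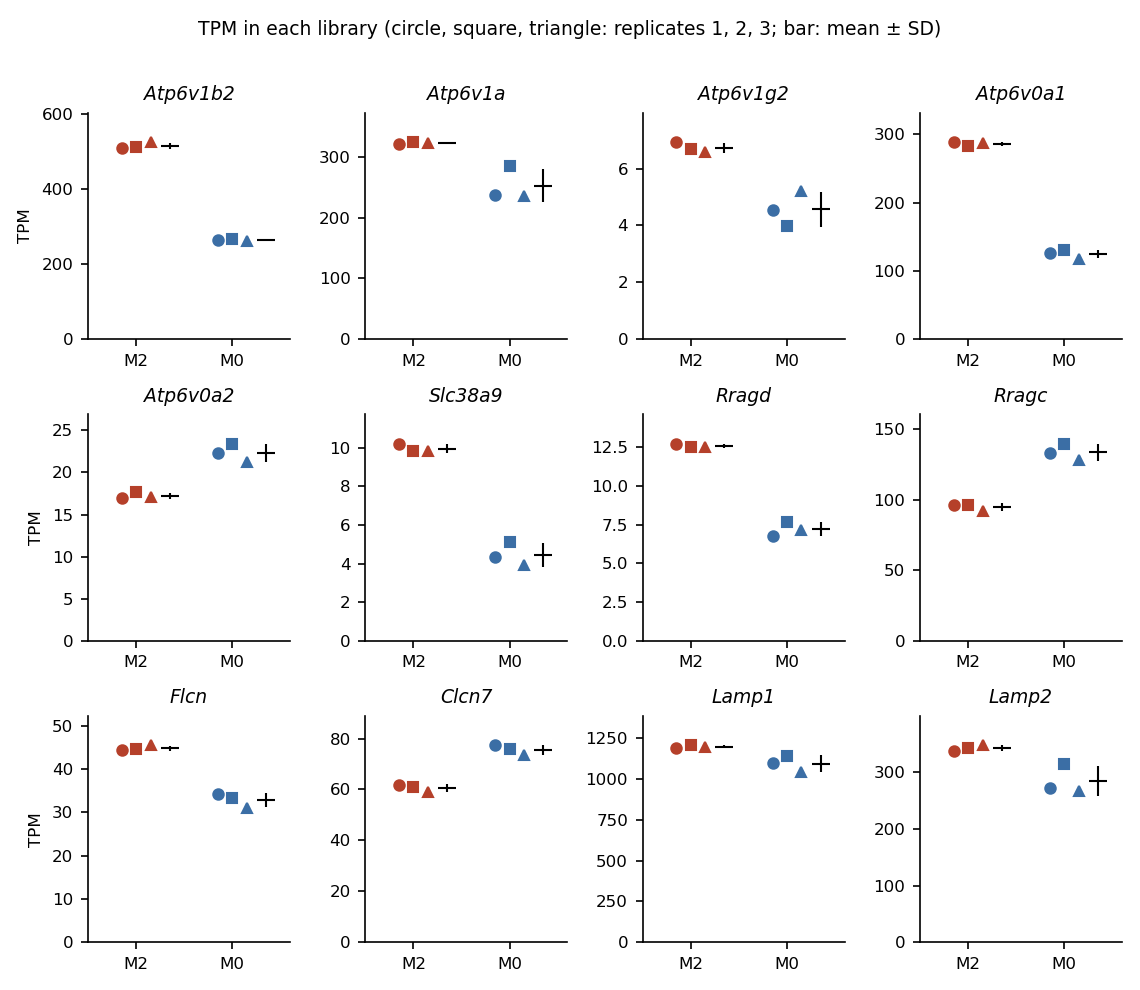
TPM of 12 members in each library, M2 left and M0 right, each axis starting at 0; circle, square and triangle are replicates 1, 2 and 3, and the bar is mean ± SD. The 12 were picked among members called on both scales, so the lack of overlap in every panel describes that choice. The M0 square is the highest M0 value in most panels, among them Atp6v1a at 285 TPM and Lamp2 at 314 TPM.

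Atp6v0a1 had the largest log2 fold change of all 34 tested members. It encodes an a subunit of V0, the large membrane protein that holds the proton path and decides which membrane the pump goes to. The gene (chr11:101009441-101063717, plus strand) had 289, 283 and 288 TPM in M2 libraries, against 126, 130.4 and 118 TPM in M0 libraries. M2 libraries were 2.30 times as high by means and clear of the M0 libraries, and the log2 fold change by limma-trend was 1.20 ± 0.04 (SE; adjusted p 7.5e-09), or 1.37 after median scaling. Its paralogue Atp6v0a2, an a subunit found on Golgi and endosomes, went the other way, with 16.98, 17.6 and 17.1 TPM in M2 libraries, against 22.3, 23.4 and 21.2 TPM in M0 libraries. Those groups did not overlap either, and the log2 fold change was -0.35 (adjusted p 0.00037, limma-trend; -0.19 after scaling, adjusted p 0.0090).

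Tcirg1, the a subunit gene of osteoclast and lysosomal pumps whose symbol the naming rule leaves out, had 366, 353 and 352 TPM in M2 libraries and 376, 346 and 350 TPM in M0 libraries, with overlapping groups and no call on TPM (log2 fold change -0.00, adjusted p 0.98, limma-trend). After median scaling it was called higher at 0.17 (adjusted p 0.016). Within the a subunit family, Atp6v0a1 held 43.4% ± 0.41 of the family's TPM in M2 libraries and 24.7% ± 1.19 in M0 libraries, and Tcirg1 54.0% ± 0.45 in M2 libraries and 70.9% ± 1.42 in M0 libraries (SD, n = 3 each). Atp6v0a4, the kidney and inner ear isoform, had 1 read in all 6 libraries. The Atp6v0a1 to Atp6v0a2 ratio was 16.6 ± 0.50 in M2 libraries and 5.59 ± 0.05 in M0 libraries. The plot of paralogue shares gives these families library by library.

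The d subunit, which couples the rotor to the proton-carrying ring, has a ubiquitous form, Atp6v0d1, and a form abundant in osteoclasts, Atp6v0d2. Atp6v0d1 had 142, 143 and 141 TPM in M2 libraries, against 136, 134 and 133 TPM in M0 libraries. The groups did not overlap but the change did not pass on TPM (log2 fold change 0.08, adjusted p 0.082, limma-trend), while it passed after scaling (0.25, adjusted p 0.00050) and without M0 replicate 2 (0.08, adjusted p 0.029). Atp6v0d2 had 488, 495 and 500.5 TPM in M2 libraries, against 122, 143 and 121 TPM in M0 libraries (log2 fold change 1.93, adjusted p 1.9e-09; 2.11 after scaling). Atp6v0d2 accounted for 77.7% ± 0.27 of d subunit TPM in M2 libraries and 48.9% ± 2.38 in M0 libraries (SD, n = 3 each).

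Osteoclast markers were also higher, as were Atp6v0a1 and Atp6v0d2, but not Tcirg1 on TPM. Of 7 listed markers 5 were tested and all 5 were higher in M2 cells on both scales. Of all tested genes 17.7% were higher on both scales. The list of 7 summed to 129 to 141 TPM in M2 libraries and 32.1 to 33.4 TPM in M0 libraries. Of the defining markers, Calcr had no read in any library and Oscar stayed under 1 TPM. Acp5 averaged 91.2 TPM in M2 libraries and 19.7 TPM in M0 libraries, and Ctsk 16.5 TPM in M2 libraries and 6.38 TPM in M0 libraries. The part of these markers in the pump results was not tested.

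**Figure D4:**
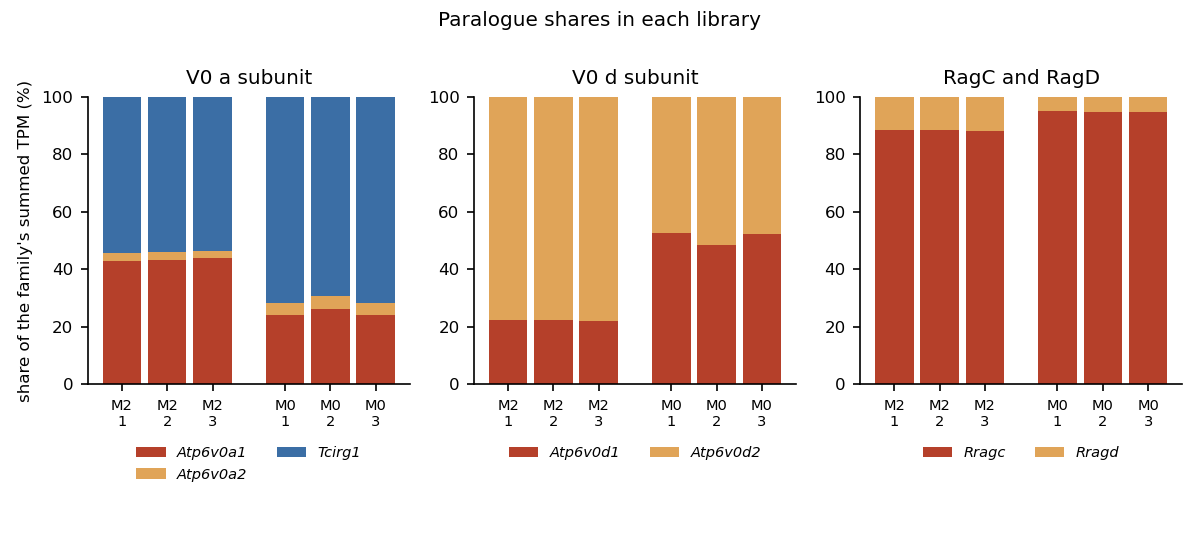
Share of each paralogue in its family's summed TPM (%, axis from 0 to 100) in the 3 M2 libraries (left) and 3 M0 libraries (right) for the V0 a subunit, the V0 d subunit and the pair RagC and RagD. Atp6v0a1 averages 43.4% of its family in M2 libraries and 24.7% in M0 libraries, Atp6v0d2 77.7% in M2 libraries and 48.9% in M0 libraries, and Rragd 11.7% in M2 libraries and 5.12% in M0 libraries.

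The c subunit forms most of the rotating proteolipid ring. Atp6v0c (chr17:24163865-24169450, minus strand) had 298, 311 and 308 TPM in M2 libraries, against 272, 240.4 and 267 TPM in M0 libraries. The table also lists Atp6v0c-ps2, which lies within Atp6v0c on the same strand and had 288, 299.8 and 299 TPM in M2 libraries, against 258, 231 and 252 TPM in M0 libraries. The 2 entries count shared reads and are 1 locus, which makes 11 higher calls rather than 12. Both entries are also included wherever tested or higher pump genes are counted. All M2 libraries exceeded all M0 libraries, with a log2 fold change of 0.23 for Atp6v0c (adjusted p 0.0023, limma-trend; 0.41 after scaling) and 0.26 for Atp6v0c-ps2 (0.43 after scaling). Another proteolipid gene, Atp6v0b, averaged 344 TPM in M2 libraries and 384 TPM in M0 libraries, and the small subunit gene Atp6v0e averaged 303 TPM in M2 libraries and 324 TPM in M0 libraries. Both were called lower on TPM (-0.16 and -0.10) and neither after scaling, where the signs turned (0.01 and 0.07). Atp6v0e was called in neither of the fits without M0 replicate 3 or M2 replicate 1 (adjusted p 0.11 in each), nor without M2 replicate 2 (0.088) or M2 replicate 3 (0.16).

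The accessory proteins of the pump, which help to assemble V0 in the endoplasmic reticulum, were called after median scaling and not before. Atp6ap1 averaged 267 TPM in M2 libraries and 271 TPM in M0 libraries, and Atp6ap2, also known as the prorenin receptor, 149.6 TPM in M2 libraries and 143 TPM in M0 libraries, with overlapping groups in each. The log2 fold changes were -0.02 and 0.06 on TPM and 0.15 and 0.23 after scaling. Atp6ap2 was also called higher without M0 replicate 2 (0.09, adjusted p 0.019).

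The other 8 pump members did not reach the level for testing. Atp6v1b1, Atp6v1g3 and Atp6ap1l had no read in any library. Atp6v0a4, Atp6v0e2, Atp6v1c2, Atp6v1e2 and Atp6v1fnb had at most 4 reads in a library. Several of these are isoforms known from kidney, testis or other specialised epithelia, and no fold change is given for them. Atp6v1b2 therefore supplied 100% of B subunit TPM in every library.

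Ragulator, the scaffold of 5 small proteins that anchors the Rag GTPases and touches the pump, had no gene called on both scales. Lamtor4 had 64.9, 59.1 and 57.6 TPM in M2 libraries, against 71.6, 71.6 and 76.6 TPM in M0 libraries. Lamtor5 had 70.4, 74.3 and 70.7 TPM in M2 libraries, against 78.5, 81.1 and 80.3 TPM in M0 libraries. Both sets of M2 values lay below the M0 values on TPM (log2 fold changes -0.27 and -0.15, adjusted p 0.0016 and 0.010, limma-trend). Neither was called after median scaling (-0.10 and 0.02), and Lamtor5 was not called without M2 replicate 1 or M2 replicate 3 (adjusted p 0.054 and 0.053). Lamtor1, the lipid-anchored subunit, averaged 137 TPM in M2 libraries and 135 TPM in M0 libraries, Lamtor2 141 TPM in M2 libraries and 128 TPM in M0 libraries, and Lamtor3 61.3 TPM in M2 libraries and 64.8 TPM in M0 libraries. Those 3 had overlapping groups and no call on TPM, and Lamtor1 and Lamtor2 were called higher after scaling (0.20 and 0.31). Lamtor2 was also called higher without M0 replicate 3 (0.23, adjusted p 0.0077). Summed over the 5 genes, Ragulator stood at 472 ± 9.86 TPM in M2 libraries and 481 ± 22.5 TPM in M0 libraries.

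Among the Rag GTPases and their regulators all 5 genes were called on both scales, 3 higher and 2 lower. Rag GTPases work as pairs of RagA or RagB with RagC or RagD. Rragc (chr4:123917433-123936997, plus strand) had 96.03, 96.5 and 91.7 TPM in M2 libraries, against 133, 139.5 and 128 TPM in M0 libraries. Rragd (chr4:32983291-33022178, plus strand) had 12.7, 12.5 and 12.5 TPM in M2 libraries, against 6.76, 7.66 and 7.17 TPM in M0 libraries. So the common partner fell and the scarce one rose, each without overlap between groups: the log2 fold change of Rragc was -0.49 (adjusted p 7.6e-06; -0.32 after scaling) and that of Rragd 0.73 (adjusted p 5.9e-06; 0.88 after scaling), by limma-trend. Rragc remained the more abundant in every library, at 7.53 ± 0.20 times Rragd in M2 libraries and 18.6 ± 0.93 times in M0 libraries (SD, n = 3 each). Their sum was 107 ± 2.73 TPM in M2 libraries and 141 ± 6.05 TPM in M0 libraries. The Rragd window lies 293 bases from the start of the deposited transcript, so the promoters of Rragc and Rragd were not compared.

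Rraga, which encodes RagA, had 47.7, 49.3 and 49.2 TPM in M2 libraries, against 58.0, 64.0 and 59.8 TPM in M0 libraries. It fell with no overlap (log2 fold change -0.31, adjusted p 0.00038, limma-trend), and by less after scaling (-0.14, adjusted p 0.023). Its paralogue Rragb supplied 0.639% of RagA and RagB TPM in M2 libraries and 0.953% in M0 libraries.

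Slc38a9, a lysosomal amino acid transporter that reports arginine to the Rag GTPases (chr13:112660766-112738752, plus strand), had 10.2, 9.83 and 9.83 TPM in M2 libraries, against 4.33, 5.12 and 3.90 TPM in M0 libraries. M2 libraries were 2.24 times as high by means, with no overlap and 496 to 1434 reads per library (log2 fold change 1.01 ± 0.09 SE, adjusted p 4.0e-06, limma-trend; 1.16 after scaling). The pseudocount of 1 weighs on genes at this level, and with a pseudocount of 5 the log2 fold change was 0.66. Flcn encodes folliculin, a GTPase-activating protein for RagC and RagD. It had 44.4, 44.7 and 45.5 TPM in M2 libraries, against 34.2, 33.2 and 31.1 TPM in M0 libraries, again without overlap (log2 fold change 0.44, adjusted p 3.2e-05; 0.61 after scaling).

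The channels and transporters split. Clcn7, the chloride-proton exchanger of lysosomes, had 61.9, 60.9 and 58.9 TPM in M2 libraries, against 77.3, 75.9 and 73.3 TPM in M0 libraries. Mcoln1, the calcium-permeable channel TRPML1, had 34.3, 31.7 and 29.6 TPM in M2 libraries, against 28.8, 27.2 and 26.6 TPM in M0 libraries. Neither pair of groups overlapped, although for Mcoln1 the lowest M2 library came within 1 TPM of the highest M0 library. Clcn7 fell by 0.31 on the log2 scale (adjusted p 0.00015, limma-trend) and by 0.14 after scaling (adjusted p 0.021). Mcoln1 rose by 0.20 (adjusted p 0.018), by 0.37 after scaling, and was not called in 3 of the fits that left out 1 library: adjusted p 0.093 without M2 replicate 1, 0.052 without M2 replicate 2 and 0.052 without M0 replicate 3. Ostm1, the partner that Clcn7 needs for stability, averaged 51.9 TPM in M2 libraries and 52.8 TPM in M0 libraries, was not called on TPM and was called higher after scaling (0.14, adjusted p 0.019). The Ostm1 to Clcn7 ratio was 0.857 ± 0.029 in M2 libraries and 0.7001 ± 0.044 in M0 libraries.

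Of the membrane glycoproteins, Lamp1 (chr8:13159161-13175338, plus strand) had 1188, 1203 and 1196 TPM in M2 libraries, against 1096, 1139.8 and 1039 TPM in M0 libraries. The difference was small and free of overlap: 1.095 times by means, with a log2 fold change of 0.13 (adjusted p 0.012, limma-trend; 0.30 after scaling). It missed the threshold without M2 replicate 2 (0.13, adjusted p 0.052). Lamp2, which also serves chaperone-mediated autophagy, had 337, 343 and 347 TPM in M2 libraries, against 273, 314 and 266 TPM in M0 libraries. Those groups did not overlap, and M0 replicate 2 again stood above the other M0 libraries (log2 fold change 0.27, adjusted p 0.0023; 0.44 after scaling, 0.34 without M0 replicate 2). The TPM of Lamp2 rest on a transcript of 1777 bases. The authors' deposited table of the comparison used another of 3603 bases and gives 0.26 (adjusted p 3.2e-05 in that table). For Lamp1, with the same transcript in both, that table gives 0.30, which is near the median-scaled value and not the TPM value. The like value for Lamp2 is therefore the 0.44 after scaling, and the other transcript gives a smaller change. Tmem192, a lysosomal membrane protein much used as a handle to purify lysosomes, had 39.5, 41.2 and 42.5 TPM in M2 libraries, against 49.2, 45.7 and 48.2 TPM in M0 libraries. It was lower on TPM without overlap (-0.21, adjusted p 0.0042) and was not called after scaling (-0.04, adjusted p 0.52). The authors' deposited table has 19 of the 34 tested members higher and 3 lower at an adjusted p under 0.05. Rraga did not pass there (-0.14, adjusted p 0.073 in that table). The share of all genes passing in that table was not counted. By limma-trend on the deposited log2-scale values, 29.5% of all tested genes were higher and 29.6% lower.

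Of the MiT/TFE factors, which act through the E-box and switch on lysosomal genes, 3 were higher and 1 was lower on TPM. Tfec, the macrophage-enriched member, had 61.4, 65.1 and 63.8 TPM in M2 libraries, against 20.0, 23.97 and 21.8 TPM in M0 libraries (log2 fold change 1.49, adjusted p 2.3e-08, limma-trend; 1.66 after scaling). Tfeb had 47.9, 48.1 and 46.6 TPM in M2 libraries, against 29.6, 24.9 and 31.9 TPM in M0 libraries (0.71, adjusted p 2.5e-05; 0.88 after scaling), and Mitf averaged 29.5 TPM in M2 libraries and 19.1 TPM in M0 libraries (0.61, adjusted p 2.0e-05; 0.77 after scaling). In each of these 3 the M2 libraries lay above the M0 libraries. Tfe3 averaged 59.5 TPM in M2 libraries and 64.9 TPM in M0 libraries and was called lower on TPM (-0.12, adjusted p 0.028) but not after scaling, where its sign turned (0.05, adjusted p 0.33). It was not called without M0 replicate 1 (adjusted p 0.058) or without any 1 of the M2 libraries (0.069 to 0.099).

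The other genes of the pathway, taken from lists of known components, also held both directions, as the plot of the lists shows. Of 14 further V-ATPase subunits and assembly factors 5 were higher, 4 lower and 5 not called, with a median log2 fold change of 0.03, beside -0.15 for all tested genes, of which 17.7% were higher and 45.3% lower (9 of the list higher and 2 lower after scaling). Apart from Atp6v0d2 the largest change was that of Oxr1, a TLDc-domain protein of the family that binds the pump, which averaged 46.6 TPM in M2 libraries and 25.8 TPM in M0 libraries (0.83, adjusted p 2.1e-06, limma-trend; 1.00 after scaling). Its relative Ncoa7 averaged 6.00 TPM in M2 libraries and 9.27 TPM in M0 libraries (-0.54, adjusted p 0.0011; -0.39 after scaling). Dmxl1, of the complex that reassembles V1 with V0, averaged 21.6 TPM in M2 libraries and 15.1 TPM in M0 libraries. The log2 fold change of Dmxl1 was 0.51 (adjusted p 0.0038, limma-trend), 0.67 after scaling and 0.66 without M0 replicate 2.

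Of 26 tested genes of nutrient sensing to mTORC1, the kinase complex included, 3 were higher, 9 lower and 14 not called, with a median of -0.10 (6 higher and 5 lower after scaling, median 0.07). Without M2 replicate 2, and likewise without M2 replicate 3, the higher calls on TPM numbered 1. On TPM 11.5% were higher and 34.6% lower, beside 17.7% and 45.3% of all tested genes. After scaling 23.1% were higher and 19.2% lower, beside 28.8% and 28.2%. Fnip2, a partner of folliculin, averaged 30.5 TPM in M2 libraries and 55.7 TPM in M0 libraries. The log2 fold change of Fnip2 was -0.84 (adjusted p 1.5e-06, limma-trend) and -0.68 after scaling, opposite in sign to that of Flcn. Fnip1, another listed partner, averaged 20.6 TPM in M2 libraries and 20.3 TPM in M0 libraries. Fnip1 was not called on TPM (0.03, adjusted p 0.78). It was called higher after scaling (0.19, adjusted p 0.045) and without M0 replicate 2 (0.13, adjusted p 0.021). Wdr59, of the GATOR complexes that regulate the Rag GTPases, averaged 2.75 TPM in M2 libraries and 4.77 TPM in M0 libraries (-0.62, adjusted p 5.6e-05, and -0.49 after scaling). None of the other listed GATOR genes was called lower on both scales. Wdr24 was higher on both scales (0.21, and 0.37 after scaling). Mios, Sec13 and Depdc5 were called lower on TPM alone, with the sign kept after scaling, and Nprl3 and Seh1l were called on neither scale. Nprl2 was not called on TPM but was called higher after scaling (0.34, adjusted p 0.0064, limma-trend). Fnip1 and these other GATOR genes were named after their values were seen. Tsc1, of the complex that restrains mTORC1, averaged 9.36 TPM in M2 libraries and 6.47 TPM in M0 libraries (0.47, adjusted p 0.00020; 0.63 after scaling). Sh3bp4, described as a negative regulator of the Rag GTPases, averaged 0.995 TPM in M2 libraries and 1.75 TPM in M0 libraries (-0.46, adjusted p 0.0014; -0.37 after scaling). With a pseudocount of 5 the log2 fold changes of Sh3bp4 and Wdr59 were -0.17 and -0.34.

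Among 30 tested lysosomal channels and transporters 13 were higher, 7 lower and 10 not called, with a median of 0.13 (18 higher and 1 lower after scaling, median 0.27). Without M2 replicate 3 the lower calls on TPM numbered 4. On TPM 43.3% were higher and 23.3% lower, beside 17.7% and 45.3% of all tested genes. After scaling 60% were higher and 3.33% lower, beside 28.8% and 28.2%. The gene lower on both scales, named after its values were seen, was Slc11a1, a metal transporter of phagosomes, at 199.8 TPM in M2 libraries and 295 TPM in M0 libraries (-0.56; -0.39 after scaling). Slc30a4, a zinc transporter, averaged 22.2 TPM in M2 libraries and 3.51 TPM in M0 libraries (2.37, adjusted p 1.6e-09, limma-trend; 2.52 after scaling). Mcoln2, a paralogue of Mcoln1, averaged 43.8 TPM in M2 libraries and 20.6 TPM in M0 libraries (1.05, adjusted p 2.5e-07; 1.22 after scaling), beside 0.20 for Mcoln1 on TPM; the difference between the paralogues was not tested. Clcn5, an endosomal relative of Clcn7, averaged 24.8 TPM in M2 libraries and 12.3 TPM in M0 libraries (0.97, adjusted p 1.5e-05; 1.13 after scaling), whereas Clcn7 fell. Slc17a5, the sialic acid exporter sialin, averaged 53.1 TPM in M2 libraries and 27.7 TPM in M0 libraries (0.91, adjusted p 2.1e-07; 1.08 after scaling).

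Among 24 tested membrane glycoproteins and lysosome-positioning genes 9 were higher, 6 lower and 9 not called, with a median of 0.03 (12 higher and 3 lower after scaling, median 0.20). On TPM 37.5% were higher and 25% lower, beside 17.7% and 45.3% of all tested genes. After scaling 50% were higher and 12.5% lower, beside 28.8% and 28.2%. Laptm4a, a lysosomal membrane protein, averaged 269 TPM in M2 libraries and 162 TPM in M0 libraries (0.73, adjusted p 1.4e-07, limma-trend; 0.90 after scaling). Borcs5 and Borcs6 belong to BORC, the complex that moves lysosomes outward along microtubules. Borcs5 averaged 8.18 TPM in M2 libraries and 4.50 TPM in M0 libraries (0.74, adjusted p 1.9e-05; 0.89 after scaling and 0.47 with a pseudocount of 5), and Borcs6 averaged 34.2 TPM in M2 libraries and 21.5 TPM in M0 libraries (0.65, adjusted p 0.00010; 0.82 after scaling). Borcs7 of the same complex was lower, at 4.23 TPM in M2 libraries and 5.82 TPM in M0 libraries (-0.38, adjusted p 0.0031; -0.24 after scaling), and the other listed BORC genes, Borcs8, Snapin, Kxd1, Bloc1s1 and Bloc1s2, were not called on TPM. Borcs7 was chosen after its values were seen. Glmp, the accessory subunit of a lysosomal transporter, averaged 249 TPM in M2 libraries and 183 TPM in M0 libraries (0.44, adjusted p 9.0e-06; 0.62 after scaling).

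**Figure D5:**
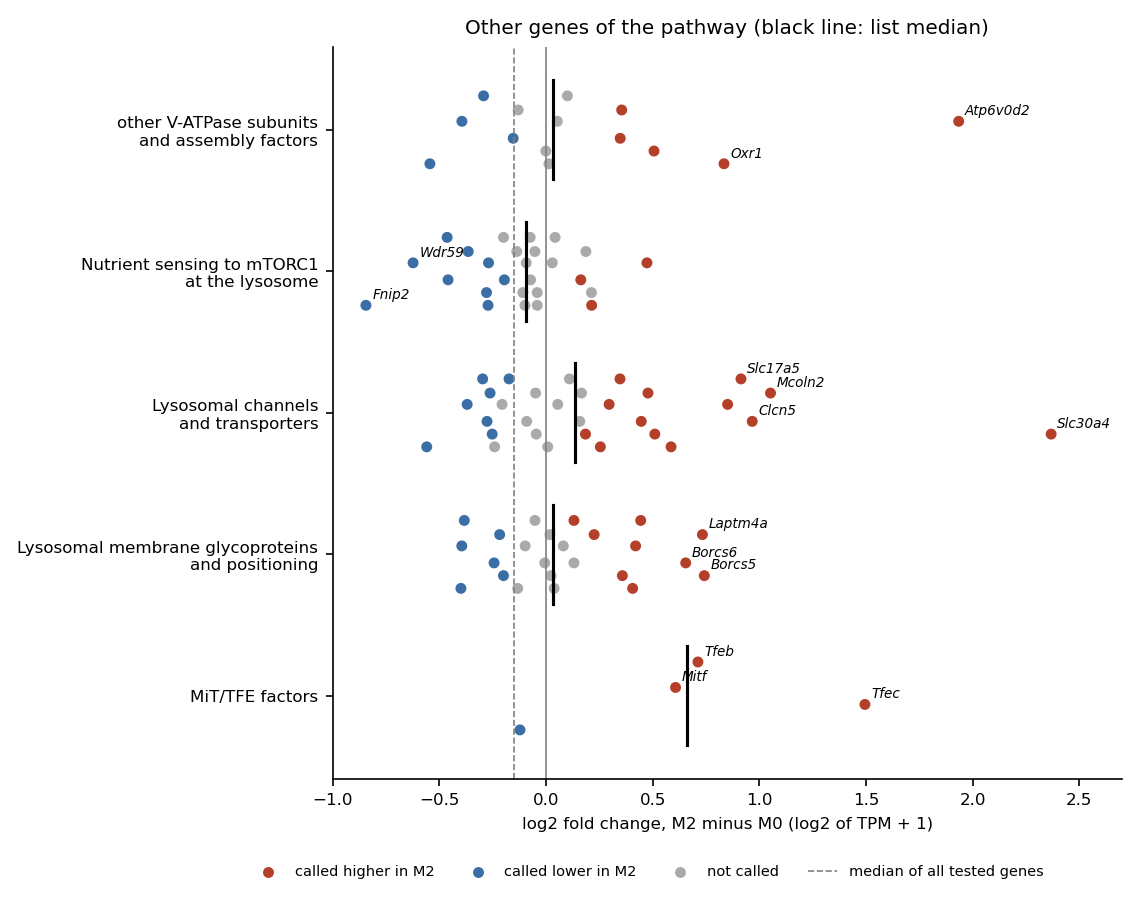
Log2 fold change (M2 minus M0, TPM scale) of each tested gene on 5 lists of related genes outside the 42 members; colour gives the call at an adjusted p under 0.05, the black line each list's median and the dashed line the median of all tested genes (-0.15). Each list has genes called in both directions, with Slc30a4 at 2.37 and Atp6v0d2 at 1.93 farthest to the right and Fnip2 at -0.84 farthest to the left.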

How the data were processed

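Messenger RNA of 3 M2 and 3 M0 libraries was sequenced with a kit that does not mark strand. The tools named in the submitters' processing notes are STAR, bcl2fastq, DESeq2 and HOMER 4.11.1, and the build is mm10. Per the file headers, the authors counted reads in exons with HOMER, kept 1 transcript per gene and deposited TPM per library. The authors also deposited values on a log2 scale, from a transformation that the headers do not name, and, for each gene, a p-value before and after adjustment. Entries of both tables were joined by symbol; 28 of the 34 tested members have the same transcript in both; commas inside the annotation had displaced 3 entries, which were put back. Per the file headers the depth is known from tag totals: TPM times length gave whole reads (within 0.1 read) for 99.8% to 99.9% of values, 89.8% to 90.9% of those totals.

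Since the unit is TPM, a two-sided limma-trend fit with robust moderation (R 4.3.3, limma 3.58.1) was run on log2 of TPM + 1 for genes with at least 1 TPM in at least 3 libraries, with group as the only term and Benjamini-Hochberg adjustment over 11235 genes (threshold 0.05). Every adjusted p given is from that fit unless another setting or table is named beside it. Fold changes are on that log scale, which understates low genes. For median scaling, TPM were divided by median-ratio factors of 0.941 to 1.09. The members and lists were chosen with earlier results of these data known. In each role the 4 called members with the largest change have values per library, and in each list up to 4 called genes are named, with Tcirg1, Atp6v0d2 and the MiT/TFE factors whatever their result. The 14 alternatives were median scaling, pseudocounts of 0.1 and 5, no filter, at least 50 recovered reads, limma-trend on the deposited log2-scale values, limma-voom on recovered reads, a replicate block and each library left out in turn; counting Atp6v0c and Atp6v0c-ps2 as 1 locus was added after seeing the data. The fits were also run on simulated reads in which some genes changed by known folds in both directions. No shift of scale between the groups was built in, so that run cannot decide between the scales. Coordinates are those of the deposited tables (mm10); overlaps come from GENCODE annotation. Tables and plots used pandas 2.3.3, numpy 2.4.6 and matplotlib 3.10.9 in Python 3.11.15.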

Additional observations from a re-analysis of the deposited data

How the results depend on the processing

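The scale set the counts. Median scaling gave 3234 higher and 3163 lower over all genes, 19 and 4 members, 10 and 1 pump genes, 3 lower among the other members and 11 lower on the pathway lists; the deposited log2-scale values gave 3318, 3323, 19, 4, 10, 1, 3 and 13 in that order. Limma-voom on recovered reads left 7 members and 2 pump genes lower. The same call was kept in all 14 alternatives by 10 of the 12 higher members (not Mcoln1 or Lamp1) and 4 of the 11 lower ones. Signs turned under median scaling and on the log2-scale values for Atp6v1h (0.050, 0.046), Ostm1 (0.14, 0.14), Atp6v1g1 (0.047, 0.043), Atp6v0b (0.015, 0.012), Lamtor3 (0.091, 0.084), Atp6v0e (0.075, 0.070), Atp6v1f (0.15, 0.14), Atp6v1d (0.019, 0.016), Atp6ap1 (0.15, 0.14), Lamtor5 (0.016, 0.013), Tcirg1 (0.17, 0.16) and Tfe3 (0.047, 0.046), and under limma-voom for Ostm1 (0.025), Atp6v1f (0.028), Atp6ap1 (0.030) and Tcirg1 (0.049). With 1 library left out, member counts ran from 19 to 26 called (10 to 14 higher, 8 to 12 lower) and pump genes lower from 3 to 6, and the log2 fold change crossed 0 for Ostm1 (-0.056 to 0.020, positive without M0 replicate 2), Atp6v1f (-0.073 to 0.036, positive without M0 replicate 3), Lamtor1 (-0.031 to 0.055, negative without M0 replicate 2) and Tcirg1 (-0.024 to 0.036, positive without M0 replicate 1, M2 replicate 2 or M2 replicate 3). Where an arm kept 2 libraries, the spread was pooled over both. The replicate block gave 12 higher and 10 lower members, losing the call of Atp6v0e (adjusted p 0.088) and, among the other named genes, Tfe3 (0.060); same-numbered libraries share only a number (correlations of deviations 0.0050, -0.0049 and -0.043). The cause of these shifts was not tested. By standard error the least precise tested member was Atp6v1g2 on TPM (0.089) and Lamtor2 after median scaling (0.095).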
